A study of Mus musculus with 26 samples.

Results

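The peroxisome proliferator-activated receptors (PPARs), their retinoid X receptor (RXR) partners and 2 corepressors were followed in brown adipose tissue (BAT). The 8 genes were chosen by name: the PPAR genes Ppara, Ppard and Pparg, the RXR genes Rxra, Rxrb and Rxrg, and the corepressor genes Ncor1 and Nrip1. They are 8 of the 50686 genes counted, and all 8 passed the filter on low counts that left 17286 genes for testing. RNA-sequencing had been carried out on BAT of 26 male C57BL/6J mice, individually housed and 12 to 16 weeks old, after 2 weeks at thermoneutrality (30 °C in the labels, 29 °C in the methods). The 4 groups were 7 control littermates kept at thermoneutrality (WT30), 7 fat-specific Afadin knockout mice kept there (KO30), 5 control mice moved to 5 °C for 6 h (WT5) and 7 knockout mice moved to 5 °C for 6 h (KO5). The knockout carries floxed alleles of the Afadin gene (Afdn, formerly Mllt4) cut by Adiponectin-Cre, which is active in all adipocytes and in few other cells of the fat pad. The labels call the control genotype WT and give the tissue as supraclavicular BAT.

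PPARs are nuclear receptors that bind fatty acids and their derivatives, pair with an RXR and bind repeats of a short hexamer near genes of lipid metabolism. PPARγ is required for adipocyte identity, PPARα drives fatty acid oxidation and is more abundant in brown than in white fat, and PPARδ is expressed in most tissues. RXRs are the common partners of PPARs, liver X receptors, retinoic acid receptors, thyroid hormone receptors and the vitamin D receptor. NCoR1, the product of Ncor1, holds unliganded receptors in a repressed state with histone deacetylase 3. RIP140, the product of Nrip1, binds liganded receptors and represses oxidative and thermogenic genes in fat.

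The upstream sequences of the 8 genes were compared first, since 4 of them changed in the same direction in both cold comparisons. RefSeq (GRCm38) gave 15 annotated start sites for the 8 genes, and the 250 bases before each were searched on both strands for 6 motifs. Of the 15 windows, 8 overlapped no annotated untranslated region, and the others overlapped such a region of the same or another gene. Some windows, such as the first of Rxra, lie inside the gene span given below. The cAMP response element TGACGTCA was in 0 of the 15 windows and in 1.55% of 32851 mouse promoters of the same length. The E-box CACGTG was in 0 windows and in 6.02% of all promoters. The perfect PPAR-type direct repeat, AGGTCA 2 times with 1 base between, was in 0 windows and in 0.0335% of all promoters. The single hexamer AGGTCA, which is part of that repeat, was in 4 windows (14% of all promoters), the CCAAT box CCAAT in 4 (33.8%) and the GC box GGGCGG in 9 (32.7%). A match or its absence describes only these letters in these windows. The windows of Ppara and Ppard, which changed in the same direction in both genotypes, were searched but are not shown. The sequences shown are those upstream of Rxra, which was lower after cold in control mice, and of Rxrg and Nrip1, which were higher in both genotypes. They lie at chr2:27676951-27677200 on the plus strand, chr1:167598112-167598361 on the plus strand and chr16:76373828-76374077 on the minus strand, and those before the second annotated starts of Rxra and Rxrg lie at chr2:27709042-27709291 and chr1:167618015-167618264 on the plus strand. Capitals mark motif matches other than those of the single hexamer AGGTCA, which are left in lower case. They read 5′ to 3′ and end at the base before the start site.
Rxra: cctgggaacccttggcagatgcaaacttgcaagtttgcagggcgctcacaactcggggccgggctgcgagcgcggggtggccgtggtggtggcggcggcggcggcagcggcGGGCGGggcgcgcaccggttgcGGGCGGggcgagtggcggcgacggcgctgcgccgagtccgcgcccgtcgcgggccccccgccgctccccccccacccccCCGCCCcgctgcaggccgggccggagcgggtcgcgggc
Rxra, second start: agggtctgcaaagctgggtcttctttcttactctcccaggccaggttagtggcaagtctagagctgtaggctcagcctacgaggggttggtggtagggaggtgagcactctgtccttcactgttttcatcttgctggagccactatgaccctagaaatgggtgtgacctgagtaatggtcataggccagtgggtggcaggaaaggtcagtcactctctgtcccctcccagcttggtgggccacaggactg
Rxrg: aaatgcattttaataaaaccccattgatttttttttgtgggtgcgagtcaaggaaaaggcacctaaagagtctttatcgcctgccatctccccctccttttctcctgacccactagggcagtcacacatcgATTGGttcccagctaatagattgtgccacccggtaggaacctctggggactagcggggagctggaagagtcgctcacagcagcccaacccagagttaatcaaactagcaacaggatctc
Rxrg, second start: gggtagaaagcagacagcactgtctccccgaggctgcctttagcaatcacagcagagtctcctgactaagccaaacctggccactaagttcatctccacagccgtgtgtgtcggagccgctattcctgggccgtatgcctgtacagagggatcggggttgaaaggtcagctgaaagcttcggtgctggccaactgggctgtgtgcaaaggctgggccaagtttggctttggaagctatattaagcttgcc
Nrip1: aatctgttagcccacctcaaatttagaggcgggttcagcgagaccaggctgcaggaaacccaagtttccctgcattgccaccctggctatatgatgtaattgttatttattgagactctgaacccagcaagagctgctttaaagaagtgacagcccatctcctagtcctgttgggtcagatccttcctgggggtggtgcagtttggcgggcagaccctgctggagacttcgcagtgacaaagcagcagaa
The Rxra window was 81.2% G or C, against a median of 52.4% over all promoters, and its 3 GC boxes began at -139, -117 and -38 from the start site. The Rxrg window was 49.2% G or C and held a CCAAT box on the minus strand at -119. The windows before the second starts, both 55.2% G or C, held the hexamer AGGTCA, that of Rxra at -87 on the minus strand and at -48 on the plus strand and that of Rxrg at -88 on the plus strand. The Nrip1 window was 51.2% G or C and held none of the 6 motifs, while a second annotated start of Nrip1 had 2 overlapping GC boxes in a window of 73.6% G or C.

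The libraries held between 12705969 and 25732258 counts. Afdn was measured at 151.5 to 213.7 CPM (counts scaled to a common library size) in the WT30 mice and at 153.5 to 230.5 CPM in the KO30 mice, so the counts of the targeted gene did not separate the labels at 30 °C. At 5 °C all 7 KO5 mice (53.25 to 65.27 CPM) were below all 5 WT5 mice (67.85 to 79.16 CPM), but the difference was not past the threshold (log2 fold change -0.33, SE 0.09, adjusted p = 0.116). The second genotype is therefore named by its label. All 6 brown adipocyte and all 5 adipocyte markers were detected in every group. The summed level of 7 skeletal muscle markers varied widely within groups (7.19 to 5540 CPM in WT30, 3.84 to 1510 in KO30, 1.2 to 4590 in WT5 and 2 to 7460 in KO5). Other cell types' markers moved with cold, and their part in the results was not tested. The summed levels of 5 endothelial markers ran from 421 to 595 CPM at 30 °C and from 594 to 801 CPM at 5 °C, with 3 markers higher and 2 lower in control mice and 3 higher and 1 lower in mice labelled KO. Both neutrophil markers tested rose in each genotype (medians 2.09 and 3.39 on the log2 scale), from sums of 0.349 to 3.39 CPM at 30 °C to 2.7 to 40.7 CPM at 5 °C. Of 6 macrophage markers, 2 rose and 2 fell in control mice, and 4 rose and 2 fell in mice labelled KO. Of 3 red blood cell markers, 0 passed in control mice by edgeR's test, with 0 at an unadjusted p below 0.05, and 3 rose in mice labelled KO. WT30 replicate 7 had the lowest median correlation with its group (0.9582) and the highest sum of 5 fibroblast markers (2530 CPM, group median 1080). In bulk tissue, fewer cells of a type and less RNA per cell cannot be told apart.

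Cold for 6 h lowered Ppara mRNA and raised Nrip1, Rxrg and Ppard mRNA in both genotypes. In control mice, 3 of the 8 genes rose and 2 fell, while 65% of all genes tested passed the same threshold (31.6% higher, 33.4% lower). With upper-quartile scaling 3 rose and 5 fell in control mice. In mice labelled KO, 3 of the 8 rose and 4 fell, against 68.6% of all genes (33.7% higher, 34.9% lower). With library size alone as the scaling, 1 rose and 5 fell in mice labelled KO. The count in control mice was thus close to that of the transcriptome as a whole. Each adjusted p comes from the quasi-likelihood test of edgeR, adjusted after Benjamini and Hochberg over all genes tested.

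**Figure D1:**
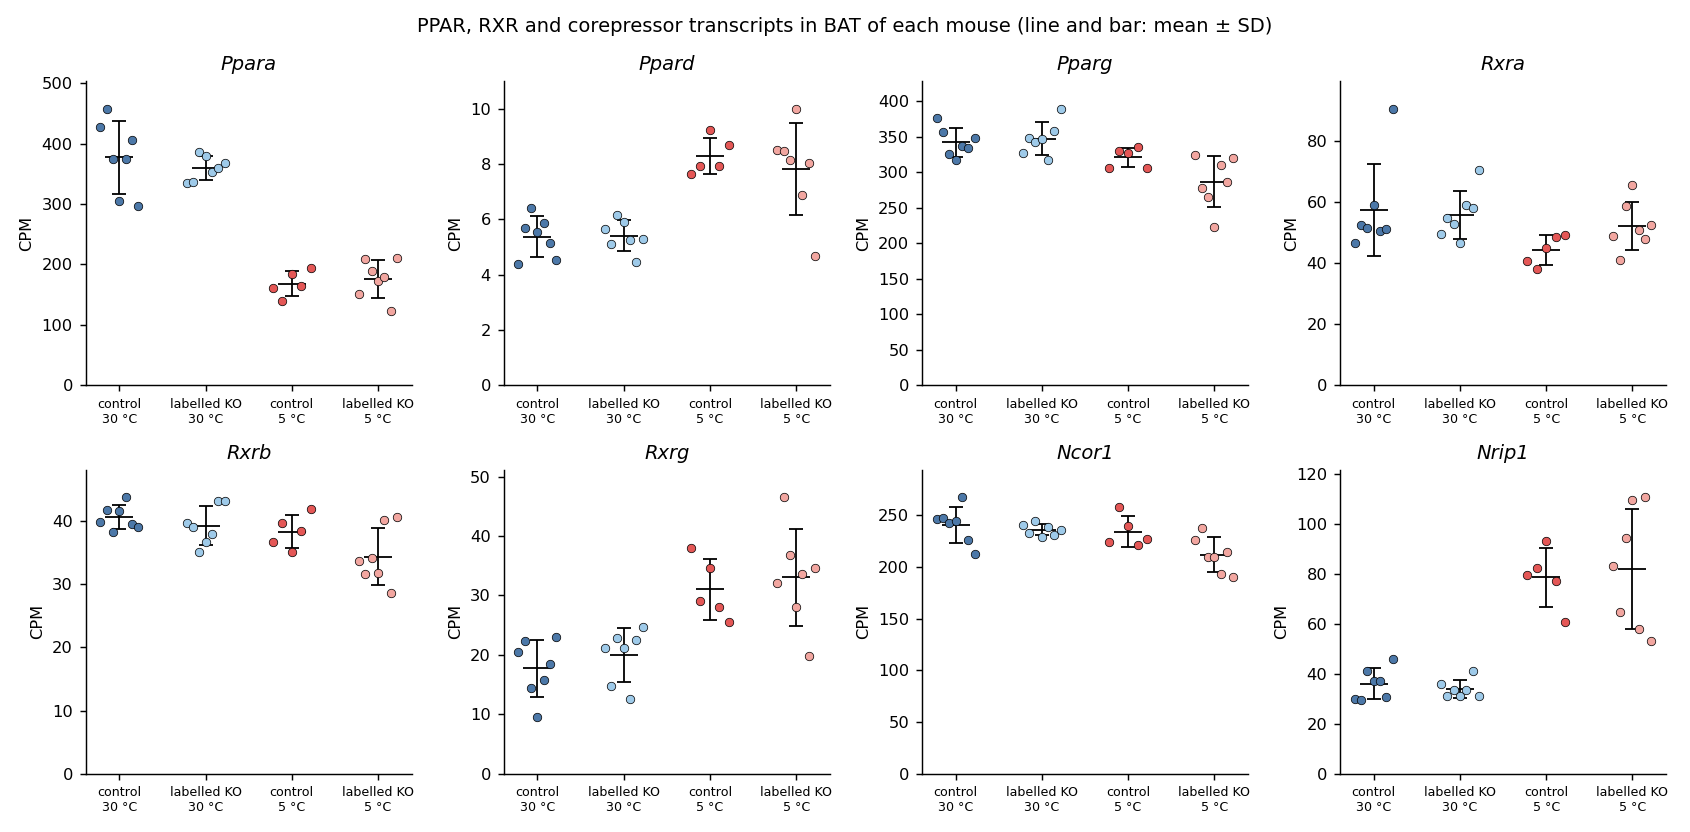
CPM (y axis, from 0) of the 8 genes in each of the 26 mice, by genotype label and temperature (x axis), with the mean and SD of each group. Ppara lies at 296.2 CPM or more in the mice at 30 °C and at 210.9 CPM or less in the mice at 5 °C, and Nrip1 at 45.74 or less and 53.12 or more.

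Ppara (ENSMUSG00000022383.13, mm10 chromosome 15, 85734983 to 85802819, plus strand) had the largest decrease of the 8. In WT30 mice its lowest, median and highest levels were 296.2, 374.1 and 457.7 CPM, and in KO30 mice they were 334, 359.8 and 386 CPM. In the 5 WT5 mice it was 161.2, 138.5, 183.5, 163.6 and 193.1 CPM, and in KO5 mice it ran from 122.7 through a median of 179.7 to 210.9 CPM. Every mouse at 5 °C was below every mouse at 30 °C. Among all genes, 46.4% did not overlap between WT5 and WT30 (22.9% lower) and 40.4% between KO5 and KO30 (19.3% lower). Cold lowered Ppara by 55.4% in control mice (log2 fold change -1.17, SE 0.12, adjusted p = 2.78e-09). In mice labelled KO the decrease was 50.9% (log2 fold change -1.03, SE 0.11, adjusted p = 2.92e-09). The summed brown adipocyte markers, of which Ppara is 1 and Ucp1 the most abundant after cold, went from 2020 to 3140 CPM in WT30 up to 19100 to 21300 CPM in WT5, a sum carried by Ucp1. Of these 6 markers 2 rose and 3 fell in each genotype, Ppara being among the latter, with median log2 fold changes of -0.37 in control mice and -0.15 in mice labelled KO.

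Pparg (ENSMUSG00000000440.12, chromosome 6, 115360951 to 115490399, plus strand) changed less with cold than Ppara. It ran from 317.4 through 336.9 to 376.3 CPM in WT30 and from 316.6 through 346.4 to 389.3 CPM in KO30. The WT5 mice had 306, 329.9, 326.2, 335 and 305.5 CPM, of which 3 lay inside the WT30 range and all 5 were below the WT30 mean, and the KO5 mice ran from 222 through 285.4 to 323.7 CPM. In control mice the change was not past the threshold (log2 fold change -0.09, 95% interval -0.24 to 0.06, adjusted p = 0.271), but it was in a fit to only the WT30 and WT5 mice (-0.14, adjusted p = 0.0344) and with upper-quartile scaling. In mice labelled KO, Pparg fell by 17.4% (log2 fold change -0.28, SE 0.07, adjusted p = 6.66e-04), all 7 KO5 mice being below the KO30 mean. The gene-level counts do not separate the γ1 and γ2 isoforms.

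Ppard (ENSMUSG00000002250.15, chromosome 17, 28232700 to 28301474, plus strand) was the lowest of the 3 PPAR genes, with 68 to 215 counts per mouse. It ran from 4.381 through 5.56 to 6.424 CPM in WT30 and from 4.442 through 5.293 to 6.169 CPM in KO30. The WT5 mice had 7.651, 7.943, 9.226, 7.951 and 8.699 CPM, all above every WT30 mouse. The KO5 mice ran from 4.661 through 8.159 to 10.01 CPM, and 6 of the 7 were above every KO30 mouse. Ppard rose by 54.5% in control mice (log2 fold change 0.63, SE 0.13, adjusted p = 1.44e-04). The rise was 44.7% in mice labelled KO (0.53, SE 0.12, adjusted p = 3.41e-04). With library size alone as the scaling, the rise in mice labelled KO was 0.20 and not past the threshold (adjusted p = 0.124).

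The 3 RXR genes did not move together: Rxrg rose in both genotypes, Rxra fell in control mice and Rxrb fell in mice labelled KO. Rxrg (ENSMUSG00000015843.10, chromosome 1, 167598384 to 167639623, plus strand) encodes the RXR with the most restricted tissue range, found mainly in muscle and brain. It ran from 9.549 through 18.38 to 23.08 CPM in WT30 and from 12.59 through 21.23 to 24.67 CPM in KO30. The WT5 mice had 37.9, 28.98, 34.67, 28.01 and 25.58 CPM, all above the WT30 mice, and the KO5 mice ran from 19.79 through 33.54 to 46.49 CPM, with 1 mouse inside the KO30 range. Cold raised Rxrg by 75.1% in control mice (log2 fold change 0.81, SE 0.19, adjusted p = 6.89e-04). The rise in mice labelled KO was 65.7% (0.73, SE 0.18, adjusted p = 8.01e-04), and with library size alone it was 0.43 (adjusted p = 0.0568). With a skeletal muscle score as a covariate the changes were 0.82 and 0.73 (adjusted p = 5.63e-04 and 6.96e-04).

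Rxra (ENSMUSG00000015846.14, chromosome 2, 27676440 to 27762957, plus strand), the main RXR of liver, ran from 46.58 through 51.45 to 90.51 CPM in WT30 and from 46.48 through 54.63 to 70.51 CPM in KO30. The 90.51 CPM belonged to WT30 replicate 7, and the other 6 mice of that group reached 59.05 CPM at most. The WT5 mice had 40.69, 38.11, 44.76, 48.54 and 49.03 CPM, overlapping the WT30 mice, and the KO5 mice ran from 41.05 through 50.92 to 65.48 CPM. The decrease in control mice was 22.9% (log2 fold change -0.38, SE 0.14, adjusted p = 0.0180). Without WT30 replicate 7 it was -0.25 (adjusted p = 0.0353), and without WT5 replicate 17 it was -0.33 and not past the threshold (adjusted p = 0.0549). In mice labelled KO the change was -0.10 (95% interval -0.35 to 0.16, adjusted p = 0.487), and with library size alone it was -0.44 (adjusted p = 0.0174).

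Rxrb (ENSMUSG00000039656.16, chromosome 17, 34031812 to 34038399, plus strand), a broadly expressed RXR, differed little between groups. It ran from 38.27 through 39.82 to 43.73 CPM in WT30, from 35.15 through 39.11 to 43.18 CPM in KO30, from 35.06 through 38.35 to 41.82 CPM in WT5 and from 28.57 through 33.61 to 40.63 CPM in KO5. All 4 groups overlapped. The change in control mice was -0.08 (95% interval -0.24 to 0.07, adjusted p = 0.343), and in mice labelled KO Rxrb fell by 12.5% (log2 fold change -0.19, SE 0.07, adjusted p = 0.0148).

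The corepressors differed. Nrip1 (ENSMUSG00000048490.13, chromosome 16, 76287400 to 76373827, minus strand) rose most. It ran from 29.52 through 37.11 to 45.74 CPM in WT30 and from 31.06 through 33.63 to 41.01 CPM in KO30. The WT5 mice had 79.36, 82.21, 93.25, 77.12 and 60.89 CPM, and the KO5 mice ran from 53.12 through 83.16 to 110.6 CPM. Every mouse at 5 °C was above every mouse at 30 °C, which held for 23.5% of all genes between WT5 and WT30 and for 21.1% between KO5 and KO30. Nrip1 rose 2.19-fold in control mice (log2 fold change 1.13, SE 0.16, adjusted p = 4.90e-07) and 2.41-fold in mice labelled KO (1.27, SE 0.15, adjusted p = 1.75e-08). The KO5 mice were the most spread, 4 of them at 83.16 CPM or more and the other 3 at 64.87 CPM or less.

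Ncor1 (ENSMUSG00000018501.17, chromosome 11, 62316426 to 62458541, minus strand) shares exon sequence with Pigl and Ttc19 on the opposite strand, and whether the counting used strand is not given in the sources used here, so its values are uncertain to that extent. Ncor1 ran from 212.7 through 244.1 to 267.2 CPM in WT30, from 228.8 through 235.3 to 244.1 CPM in KO30, from 221.4 through 227.1 to 258 CPM in WT5 and from 190.1 through 209.8 to 237.8 CPM in KO5. In control mice it changed by -0.04 (95% interval -0.16 to 0.08, adjusted p = 0.552). The decrease of 10.3% in mice labelled KO was past the threshold (log2 fold change -0.16, SE 0.05, adjusted p = 0.0117).

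**Figure D2:**
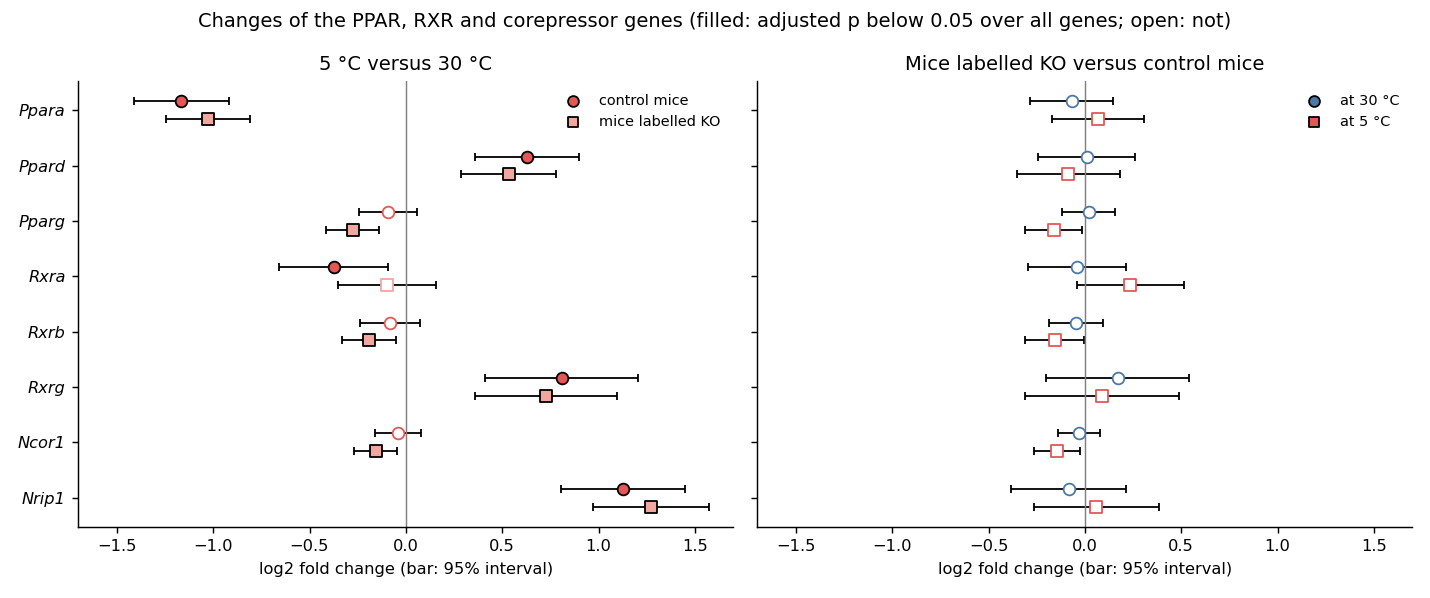
Log2 fold change with 95% interval (x axis) of each gene (y axis) after cold in each genotype (left) and between genotype labels at each temperature (right). Filled symbols passed an adjusted p of 0.05 over all genes, which 5 of the 8 did in control mice, 7 of the 8 in mice labelled KO, and 0 between labels.

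To compare the genes with each other, CPM were divided by the length of the summed exons in kilobases. In WT30 mice the medians were 114.1 for Pparg, 97.52 for Ppara, 19.05 for Ncor1, 10.02 for Rxrb, 9.42 for Rxra, 8.00 for Rxrg, 3.24 for Nrip1 and 0.74 for Ppard, all in CPM per kilobase. The ranges of Pparg and Ppara overlapped, as did those of the neighbouring RXR genes, and the others in this order did not overlap with the next. After cold the order of medians in WT5 mice was Pparg (110.5), Ppara (42.65), Ncor1 (17.73), Rxrg (12.62), Rxrb (9.65), Rxra (8.19), Nrip1 (6.93) and Ppard (1.06 CPM per kilobase). Rxrg had moved from the lowest to the highest RXR, and its WT5 range no longer overlapped that of Rxrb. With the longest transcript as the length, Rxrb had a higher median than Rxrg in WT5 mice (14.6 and 13.74 CPM per kilobase), with overlapping ranges.

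Within each mouse, the share of Ppara in the length-scaled PPAR total was 45.5% ± 3.5 (SD, n = 7) in WT30, 44.2% ± 1.72 (n = 7) in KO30, 28.5% ± 3.08 (n = 5) in WT5 and 31.9% ± 4.91 (n = 7) in KO5. Pparg took most of the rest, from 54.1% ± 3.49 in WT30 to 70.8% ± 3.11 in WT5. Ppard made up from 0.244% to 0.77% in the mice of WT30, KO30 and WT5 and from 0.378% to 1.1% in KO5. These shares do not depend on how libraries were scaled, but they do depend on length: without division by length, Ppara made up 51.8% and Pparg 47.4% in WT30. The ratio of Ppara to Pparg was 0.656 to 0.989 in WT30 and 0.323 to 0.486 in WT5, without overlap, and 0.727 to 0.867 in KO30 and 0.331 to 0.595 in KO5, also without overlap. For the RXR family, the share of Rxrg was 26.9% ± 5.59 in WT30, 30% ± 5.15 in KO30, 43.1% ± 5.41 in WT5 and 43.7% ± 6.82 in KO5. The ratio of Rxrg to Rxra ran from 0.385 to 1.05 in WT30 and from 1.24 to 2.21 in WT5. It overlapped between KO30 (0.508 to 1.09) and KO5 (0.987 to 2.69). Nrip1 relative to Ncor1 went from a median of 0.156 in WT30 to 0.39 in WT5 and from 0.154 in KO30 to 0.411 in KO5, without overlap between temperatures.

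**Figure D3:**
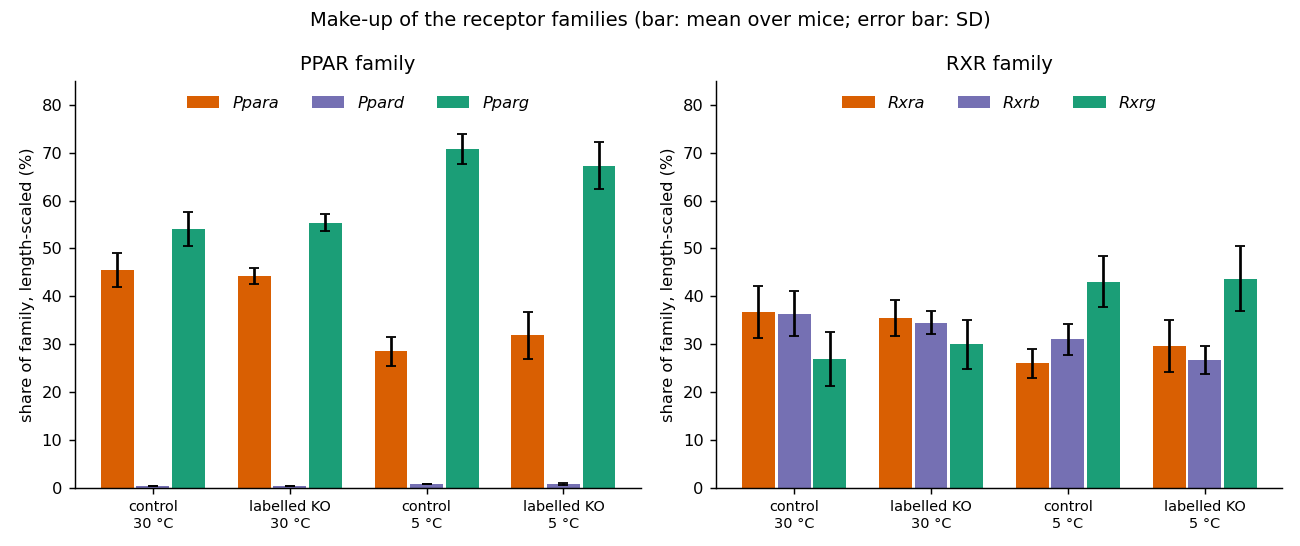
Share of each receptor in the length-scaled total of its family (y axis, %) by group (x axis), as the mean over mice with the SD. Ppara goes from 45.5% to 28.5% of the PPAR total in control mice, and Rxrg from 26.9% to 43.1% of the RXR total.

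Among 48 nuclear receptor genes, Pparg and Ppara had the highest and the next highest level per length in all 4 groups. Pparg was at the 98.7 percentile of all genes tested in WT30 and Ppara at the 98.5 percentile, falling to the 95.8 percentile in WT5. The next receptors in WT30 were the circadian repressor Nr1d2 (median 22.9 CPM per kilobase), the glucocorticoid receptor Nr3c1 (22.8) and Nr4a1 (22.6), of which the highest mouse (Nr4a1, 43.4) was below the lowest Ppara value (77.2). After cold the gap to the next receptor narrowed: in WT5 mice Ppara ran from 36.1 to 50.3 CPM per kilobase and Esrra, a regulator of mitochondrial genes, from 28.7 to 33.7. In KO5 mice the ranges of Ppara (32 to 55) and Esrra (20.6 to 44.3) overlapped. The rank of Rxrg rose from 14 of 48 in WT30 to 8 in WT5.

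**Figure D4:**
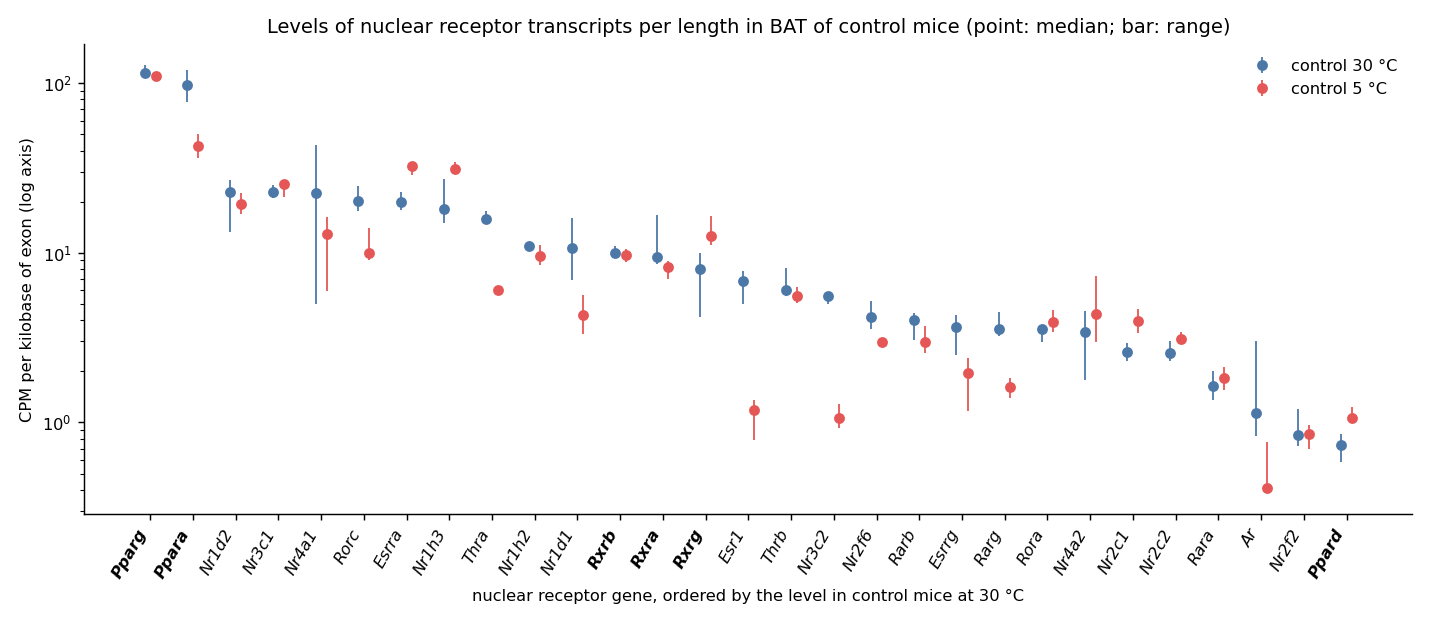
Median level per length with its range over mice (y axis, CPM per kilobase of exon, log axis) of the 29 nuclear receptor genes with the highest levels in control mice at 30 °C (x axis), at 30 °C and 5 °C. Pparg and Ppara (114.1 and 97.52) stand above the rest at 30 °C, and at 5 °C Ppara (42.65) comes close to Esrra (32.6).

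A list of 39 known PPAR target genes was read beside the receptors. More of them rose than fell in cold, while Ppara fell. In control mice 20 rose, 6 fell and 13 did not pass the threshold, with a median log2 fold change of 0.33 over the list and -0.01 over all genes. As shares, 51.3% of the list was higher and 15.4% lower, against 31.6% and 33.4% of all genes. In mice labelled KO, 27 rose, 2 fell and 10 did not pass, with a median of 0.55 and -0.03 over all genes. Here 69.2% of the list was higher and 5.13% lower, against 33.7% and 34.9% of all genes. With library size alone as the scaling the split was 17 higher and 8 lower in control mice and 19 higher and 6 lower in mice labelled KO. Many of these genes also respond to other regulators, so the list is not a readout of the PPARs alone. It was chosen with earlier results of these data known, so its counts and shares are descriptions and not a test.

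Of 6 genes of fatty acid uptake and activation, 5 rose in each genotype. Lpl, the lipase that frees fatty acids from circulating triglyceride, went from 1939 ± 276 CPM (SD) in WT30 to 8046 ± 1003 in WT5 (log2 fold change 2.05, SE 0.12, adjusted p = 3.44e-14). Acsl1, which activates fatty acids with coenzyme A, rose by 2.02 in control mice and 2.18 in mice labelled KO on the log2 scale. Fabp3, a fatty acid carrier protein, rose by 1.41 and 1.37. Slc27a1, a fatty acid transporter, fell in control mice (-0.57, adjusted p = 0.00522) and was at -0.10 in mice labelled KO (adjusted p = 0.598).

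On the lipid droplet, 3 of 6 genes rose in control mice and 5 of 6 in mice labelled KO. Plin2, a droplet coat protein, rose from 367.1 ± 73.4 CPM in WT30 to 2699 ± 174.9 in WT5 (log2 fold change 2.88) and by 3.14 in mice labelled KO. Plin5, which ties droplets to mitochondria, rose by 0.59 and 0.88, and Plin1 by 0.24 and 0.37. Cidec, which enlarges droplets, was at 0.33 in control mice (adjusted p = 0.0623) and rose by 0.53 in mice labelled KO.

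Of 13 genes of mitochondrial oxidation and ketogenesis, 5 rose and 2 fell in control mice, and 9 rose in mice labelled KO. Pdk4, the kinase that shuts off pyruvate dehydrogenase, rose from 769.3 ± 363.1 CPM in WT30 to 2857 ± 802.3 in WT5 (1.89, SE 0.31), and the cold change in mice labelled KO was 2.62 (SE 0.30). The carnitine carrier Slc25a20 rose by 1.26 and 1.30, and Cpt1b, the muscle and brown fat carnitine palmitoyltransferase, by 0.60 and 0.62. Its liver-type paralogue Cpt1a fell by 0.27 in control mice and was at 0.09 in mice labelled KO (adjusted p = 0.322). Acaa2, the last enzyme of mitochondrial beta-oxidation, fell by 0.38 in control mice and was at -0.04 in mice labelled KO (adjusted p = 0.641). Ucp3 rose by 0.71 in mice labelled KO and was at -0.11 in control mice (adjusted p = 0.739).

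Of 5 peroxisomal genes, 3 rose and 1 fell in each genotype. Ehhadh, the bifunctional enzyme, rose from 33.44 ± 13.74 to 502.8 ± 282.7 CPM in control mice (3.91, SE 0.35), and the cold change in mice labelled KO was 4.56 (SE 0.35). Pex11a, which acts in peroxisome division, rose by 0.26 and 0.78. The thiolase Acaa1a fell (-0.87 and -0.70). Acaa1b, which is nearly identical in sequence to Acaa1a, was at -0.39 and 0.43 and passed in neither, and reads of this pair may be split uncertainly.

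Of 5 genes of glycerol handling and lipogenesis, 2 rose and 1 fell in control mice and 3 rose in mice labelled KO. Gk, glycerol kinase, went from 36.18 ± 13.19 CPM in WT30 to 2420 ± 102.2 in WT5 (6.06, SE 0.27), while the cold change in mice labelled KO was 5.82 (SE 0.27). The glycerol channel Aqp7 rose by 0.50 and 0.59. Pck1, which supplies the glycerol backbone, was at 0.36 in control mice (adjusted p = 0.0917) and rose by 0.53 in mice labelled KO. Scd1, the fatty acid desaturase, fell in control mice (-1.08, adjusted p = 4.23e-04) and was at -0.23 in mice labelled KO (adjusted p = 0.365).

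Among 4 secreted or thermogenic genes, 2 rose and 1 fell in each genotype. Fgf21, a hormone induced in cold-activated brown fat, went from 0.337 ± 0.434 CPM in WT30 to 13.82 ± 3.49 in WT5, and Ucp1, the uncoupling protein, from 985.4 ± 233.8 to 16000 ± 552. Adipoq, the adipokine whose promoter drives the Cre, fell (-0.77 and -0.50). Angptl4, an inhibitor of Lpl and a standard PPAR target, was at -0.56 in control mice and 0.30 in mice labelled KO and passed in neither (adjusted p = 0.175 and 0.410).

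**Figure D5:**
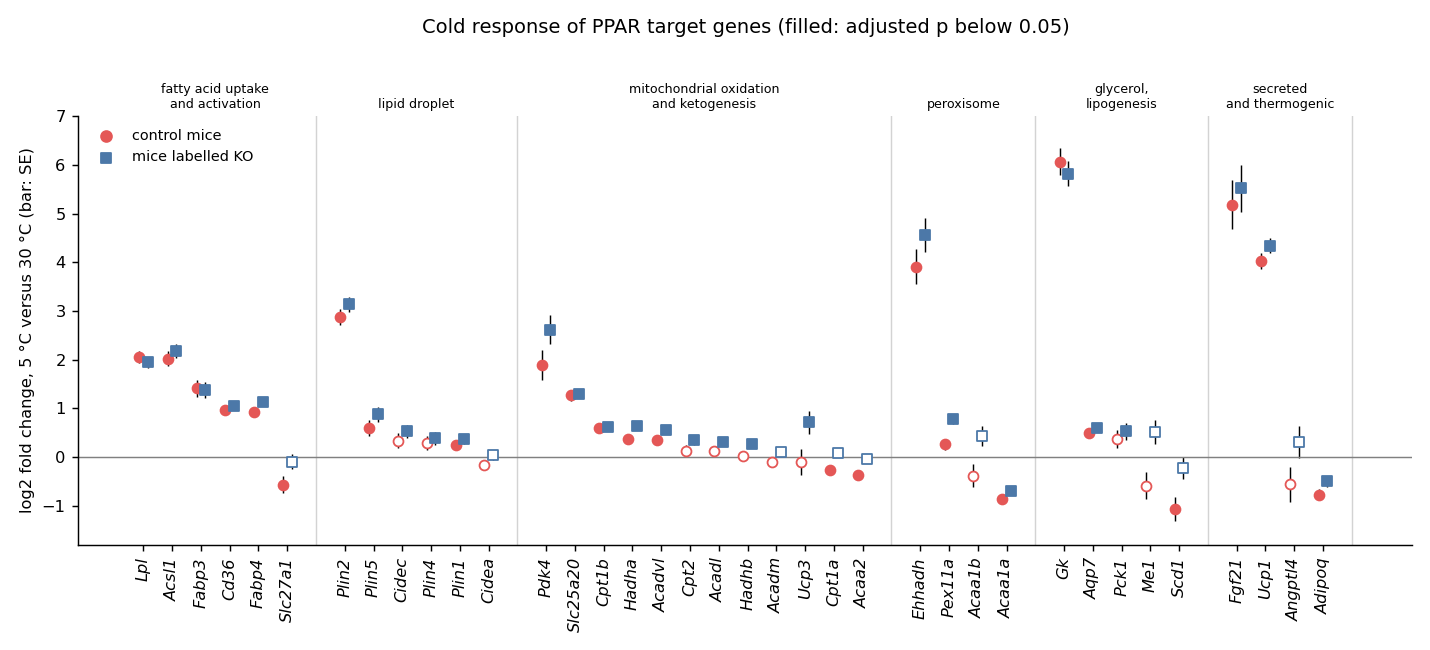
Log2 fold change after cold with its SE (y axis) of most of the listed PPAR target genes, grouped by role (x axis), in control mice (circles) and mice labelled KO (squares), filled where the adjusted p was below 0.05. Over the whole list of 39, 20 rose and 6 fell in control mice, and Gk (6.06), Fgf21 (5.18), Ucp1 (4.02) and Ehhadh (3.91) lay highest among the genes plotted.

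Coactivators, the counterparts of the corepressors, moved in both directions. Of 13, 6 rose and 5 fell in control mice and 5 rose and 5 fell in mice labelled KO. The all-gene shares (31.6% higher and 33.4% lower in control mice, 33.7% and 34.9% in mice labelled KO) are the background for this list and the next 4, whose counts are given as descriptions. For the coactivators the shares were 46.2% and 38.5% in control mice and 38.5% and 38.5% in mice labelled KO. Ppargc1a, the cold-induced coactivator PGC-1α, rose from 33.19 ± 6.49 CPM in WT30 to 559.2 ± 151.5 in WT5 (4.08, SE 0.21), and the cold change in mice labelled KO was 3.95. Its relative Pprc1 rose by 1.20 and 1.22, and the p160 coactivator Ncoa1 by 1.33 and 1.17. Lpin1, a phosphatidate phosphatase that also coactivates PPARα, fell (-0.95 and -0.75), as did the acetyltransferase Kat2b (-0.78 and -0.66) and the brown fat regulator Prdm16 (-0.66 and -0.35). The p160 relative Ncoa2 fell (-0.47 and -0.57).

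Of 14 corepressor partners, 13 could be tested, and 6 rose and 3 fell in each genotype (46.2% and 23.1%). Hdac3, the deacetylase of the NCoR1 complex, went from 51.8 ± 4.72 CPM in WT30 to 33.32 ± 1.2 in WT5 with log2 fold changes of -0.64 in control mice and -0.65 in mice labelled KO. Other parts of the same complex rose: Tbl1xr1 by 0.98 and 1.11, and Gps2 by 0.43 and 0.31. The scaffold Sin3a fell (-0.70 and -0.77) while its paralogue Sin3b rose by 0.42 and 0.38. Hdac2 rose by 0.38 and 0.42. Ctbp2, which binds RIP140, fell (-0.68 and -0.78), and Lcor, another ligand-dependent corepressor, rose by 0.50 and 0.24.

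The other receptors that pair with RXR were also mixed. Of 13, 11 could be tested, of which 3 rose and 4 fell in control mice (27.3% and 36.4%) and 3 rose and 3 fell in mice labelled KO (27.3% each). The vitamin D receptor Vdr rose from 0.548 ± 0.12 to 5.01 ± 0.882 CPM in control mice (3.19, SE 0.26), and the cold change in mice labelled KO was 3.43. Nr1h3, the liver X receptor LXRα, rose by 0.73 and 0.77, and Nr4a2 by 0.62 and 0.73. The thyroid hormone receptor Thra fell from 75.23 ± 4.27 to 28.07 ± 1.08 CPM in control mice (-1.42, SE 0.05) and changed by -1.40 in mice labelled KO. The retinoic acid receptors Rarg (-1.19 and -1.52) and Rarb (-0.37 and -0.32) fell. Of the other 28 nuclear receptors, 20 could be tested, of which 7 rose and 8 fell in control mice (35% and 40%) and 8 rose and 11 fell in mice labelled KO (40% and 55%). Nr4a3, an early response gene, rose by 3.55 and 4.62, the estrogen receptor Esr1 fell (-2.54 and -2.63), and so did the mineralocorticoid receptor Nr3c2 (-2.32 and -2.17). Esrrb rose by 1.86 and 2.10, Nr6a1 by 0.78 and 0.42 and Nr2c1 by 0.61 and 0.64, and Nr5a2 fell (-1.72 and -2.09).

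Of 7 lipases and carriers that set the supply of ligand, 6 could be tested, and 2 rose and 3 fell in control mice (33.3% and 50%) and 2 rose and 2 fell in mice labelled KO (33.3% each). Abhd5, the activator of the triglyceride lipase, rose by 1.98 and 2.15, and the monoglyceride lipase Mgll by 0.24 and 0.50. Lipe, the hormone-sensitive lipase, fell (-1.08 and -0.70), as did G0s2, the inhibitor of the triglyceride lipase (-0.74 and -0.70). Pnpla2, the triglyceride lipase itself, fell by 0.34 in control mice and was at -0.11 in mice labelled KO (adjusted p = 0.336).

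The genotype labels did not separate any of the 8 genes. At 30 °C, 0 of the 8 passed the threshold in edgeR's test, 0 had an unadjusted p below 0.05, and 0 passed with DESeq2, beside 0.081% of all genes called (0.0579% higher, 0.0231% lower). The log2 fold changes ran from -0.08 (Nrip1) to 0.17 (Rxrg), and with library size alone as the scaling those of Ppara, Rxra, Rxrb, Ncor1 and Nrip1 changed sign. Pparg had the 95% interval -0.12 to 0.16 and Ppara -0.29 to 0.15. For Rxrg the interval was wider, -0.20 to 0.54. At 5 °C, 0 of the 8 passed in edgeR's test and with DESeq2, beside 0.139% of all genes (0.0463% higher, 0.0926% lower), and 3 had an unadjusted p below 0.05. These were Ncor1 (-0.15, adjusted p = 0.276), Pparg (-0.16, adjusted p = 0.329) and Rxrb (-0.16, adjusted p = 0.362), each lower in KO5 mice. Of the 7 KO5 mice, 6 were below the WT5 mean for Ncor1, 6 for Pparg and 5 for Rxrb. Rxra was at 0.24 (95% interval -0.04 to 0.52, adjusted p = 0.452), and 6 of the 7 KO5 mice were above the WT5 mean. All 8 genes overlapped between the labels at both temperatures, while 0.249% of all genes did not at 30 °C (0.174% higher, 0.0752% lower) and 1.11% did not at 5 °C (0.33% higher, 0.781% lower).

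The difference between the cold responses of the genotypes was tested as an interaction, in which 0 of the 8 genes passed in edgeR's test or with DESeq2 and 0 had an unadjusted p below 0.05, beside 1.16% of all genes called (0.289% higher, 0.868% lower). Ppara differed by 0.14 (95% interval -0.18 to 0.46), Pparg by -0.18 (-0.39 to 0.02), Rxra by 0.28 (-0.10 to 0.65) and Nrip1 by 0.14 (-0.29 to 0.58). That Pparg, Rxrb and Ncor1 passed the cold test only in mice labelled KO, and Rxra only in control mice, is therefore not shown to be a difference between genotypes. Of the 39 PPAR targets, 0 passed at 30 °C (median -0.11, 3 with an unadjusted p below 0.05), at 5 °C (median 0.16, 9 with an unadjusted p below 0.05) or in the interaction (median 0.24, 10 with an unadjusted p below 0.05). DESeq2 called 0, 0 and 1 of them. Positive values were 6 of 39 at 30 °C, 32 of 39 at 5 °C and 36 of 39 in the interaction, beside all-gene medians of -0.02, 0.02 and 0.04. As shares these were 15.4%, 82.1% and 92.3% of the list, against 44%, 54.8% and 56.7% of all genes. An unadjusted p below 0.05 was found for 7.69%, 23.1% and 25.6% of the list and for 7.65%, 13.4% and 16.2% of all genes. The 3 comparisons share mice, and the list was chosen with earlier results of these data known. The 5 adipocyte markers, of which Adipoq, Plin1, Fabp4 and Cidec are on the target list, were all positive at 5 °C and in the interaction. Markers of other cell types also leaned in these 2 comparisons. All 6 macrophage, 7 skeletal muscle and 3 red blood cell markers were positive in both, as were the 2 neutrophil markers tested. Of 5 fibroblast markers 4 and 5 were positive, and of 5 lymphocyte markers 5 and 4. Of 5 endothelial markers 2 and 1 were positive, and of 3 Schwann cell markers 0 and 0. Their part in the values of the PPAR targets was not tested.

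The genes most like each receptor were sought by the Pearson correlation of log2 CPM over the 26 mice, which share the temperature difference and the scaling. For Ppara they were Add3 (r = 0.979), Dnajc28 (0.974) and Herc3 (0.973). For Nrip1 they were Il1r1 (0.961), Champ1 (0.96) and Ifi207 (0.959), and for Rxrg Ganab (0.927), Fgd4 (0.902) and Sephs2 (0.899). For Ppard they were Cdk11b (0.923), Ppp1r18 (0.916) and Ncl (0.906), and for Pparg Adrb3, the beta3-adrenergic receptor (0.86), Cnpy4 (0.852) and Nrp1 (0.837). Rxra was most like Gnal (0.843), Pla2g6 (0.83) and Slc25a10 (0.814), Rxrb like Gfod2 (0.826), Nprl2 (0.808) and Inppl1 (0.805), and Ncor1 like Kif3a (0.826), Gm20407 (0.753) and Rab37 (0.744).

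After the group means were taken out, the closest genes were Ptcd1 (0.845), Sdhaf4 (0.821) and Add3 (0.807) for Ppara, so Add3 was in both lists, as Ppp1r18 was for Ppard. They were Ganab (0.847), Pdp2 (0.845) and Prelid3b (0.832) for Rxrg, and Ganab was likewise in both. For Ppard they were Ppp1r18 (0.804), 6330409D20Rik (0.79) and Sh2d3c (0.785), for Pparg Ost4 (0.816), Dusp28 (0.797) and Mrpl38 (0.789), and for Rxra Qsox1 (0.873), Pcx (0.855) and Tshr (0.848). For Rxrb they were Maf1 (0.827), Tef (0.803) and Crispld1 (0.791), for Ncor1 C130023A14Rik (0.746), Igip (0.743) and Rab17 (0.74), and for Nrip1 Gm38070 (0.853), Gm26538 (0.807) and Hipk2 (0.799). The Rxra values of both lists include WT30 replicate 7 (90.51 CPM, group median 51.45) and were not computed without it. Some similar genes had few counts. Rab17 had means of 0.0344 CPM in WT5 and 0.117 in KO5, Gm38070 0.496 in WT30 and 0.801 in KO30, and Gm20407 0.337 in KO5. Among the 8 genes themselves, Ppara and Nrip1 had r = -0.944 over all mice and -0.641 within groups, Ppara and Rxrg -0.595 and 0.52, Ppard and Pparg -0.69 and -0.566, and Rxrb and Nrip1 -0.647 and -0.574. Over the deviations of all 26 mice, more Ppara thus went with less Nrip1 and more Rxrg, as a description with no test. The pooled values need not hold in each group: the WT5 mouse with the most Ppara (193.1 CPM) had the least Rxrg (25.58 CPM).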

How the data were processed

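Libraries were stranded total RNA without rRNA, read as 100-bp single ends. For alignment to mm10 the authors used STAR (v2.5.2b), and for the gene counts featureCounts (v1.5.2). The deposited values are counts without normalization. Symbols, exon lengths and positions were taken from GENCODE M21, gene identifiers being matched without their version (50376 of 50686 had a symbol). The 8 genes and the gene lists were chosen with earlier results of these data known.

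Genes were filtered with filterByExpr by group. The test was edgeR's quasi-likelihood F test (version 4.0.16, legacy setting, R 4.3.3), with 1 term per group, TMM factors, and Benjamini-Hochberg adjustment with a threshold of 0.05. All 4 groups share 1 estimate of the spread. The SE is the log2 fold change divided by the square root of F. CPM use TMM-scaled totals, and log2 CPM had a prior count of 2. All 73 pairs of mice of a group differed by more than sampling noise (lowest chi-square per gene 5.17). The edgeR fit was tested on simulated counts in which a small part of the genes changed, in KO5 alone. That setting is unlike the broad changes after cold.

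Besides the 8 genes, the text names for each list and cold comparison up to 3 genes per direction with the largest changes past the threshold at a mean of at least 1 CPM, preset PPAR targets and coregulators, and for each of the 8 genes the 3 most similar genes. Acaa1b and the receptors ranked by level (Nr1d2, Nr3c1, Nr4a1, Esrra) were added after their values were seen. Some genes of the lists are counted but not reported here by name. Promoters are RefSeq (GRCm38), and no protein sequences were used here. The alternatives were DESeq2 1.42.0, other scalings and filters, edgeR's revised method, robust empirical Bayes, a muscle score as covariate, only the groups compared, other gene lengths, and leaving out each mouse.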

Additional observations from a re-analysis of the deposited data

Results flagged for a closer look

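Rxra in WT30 replicate 7 was 90.51 CPM, while the other 6 mice of the group lay between 46.58 and 59.05 CPM, a gap beyond Dixon's 95% limit for 7 samples. It was the only such value in 32 groups checked (8 genes in 4 groups), and chance gives about 1 in 20. The same library had the highest skeletal muscle sum of its group (5540 CPM, median 65.1) and the highest fibroblast sum (2530 CPM, median 1080), and their part in the Rxra value was not tested.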

How the results depend on the processing

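No paired analysis was possible because the replicate numbers are not shared between groups. With upper-quartile factors 8 of the 8 genes passed in cold in control mice, Pparg, Rxrb and Ncor1 being added, and with DESeq2 1 of the 39 PPAR targets passed in the difference of the cold responses; the cause was not tested. Upper-quartile factors moved the median of all genes to -0.12 (control mice) and -0.18 (mice labelled KO) after cold, and library size alone to -0.14 and -0.34, to 0.13 between labels at 30 °C and to -0.15 in the interaction. The cold changes of Ppara, Ppard, Rxrg and Nrip1 kept their direction under every alternative. Between labels at 30 °C, library size alone reversed Ppara (0.0847), Rxra (0.0764), Rxrb (0.106), Ncor1 (0.124) and Nrip1 (0.0484), and upper-quartile factors reversed Ncor1 (0.000492). Library size alone also reversed Nrip1 at 5 °C (-0.00837) and Ppara (-0.0638) and Nrip1 (-0.0568) in the interaction.

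Leaving out each mouse gave 4 to 5 of the 8 genes in control mice after cold, 7 in mice labelled KO, 24 to 30 and 27 to 31 of the 39 targets, and 0 in the other comparisons. Among values that were past no threshold, those that changed sign ranged at 30 °C from -0.0343 to 0.0676 (Ppard) and -0.0906 to 0.122 (Rxra), at 5 °C from -0.157 to 0.00829 (Ppard), -0.0149 to 0.184 (Rxrg) and -0.0269 to 0.142 (Nrip1), and in the interaction from -0.181 to 0.0267 (Rxrg). Ppard had the fewest counts of the 8 genes (68 to 215), while Rxrg had the widest standard errors (0.18 to 0.19 in the cold and label comparisons). Levels per length rest on the annotation: with the longest transcript Pparg was 158.5 and Ppara 109.6 CPM per kilobase in WT30.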
